A study of Mus musculus with 56 samples.

Results

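Semaphorins were followed in β-catenin mutant mammary tumor cells through 10 genes, the secreted class 3 members Sema3a, Sema3b, Sema3c, Sema3e and Sema3f and the membrane-spanning class 4 members Sema4a, Sema4b, Sema4c, Sema4d and Sema4f, out of 20314 genes measured. The list was chosen because Sema4f was almost lost in D164A/- cells as compared to fl/fl cells, so the level of every member in those cell types is a description and was not tested. All 10 members reached at least 1 CPM (reads scaled to the size of the library) in at least 2 samples and entered the tests. The samples were 56 RNA-sequencing libraries of cell lines from mammary tumors of MMTV-PyMT mice (FVB/N), which carry the polyoma middle T oncogene under a mammary promoter. Every line therefore carried the oncogene. The control lines were fl/fl, with floxed β-catenin alleles that still make the wild-type protein. In D164A/fl, ΔC/fl and dm/fl lines a mutant β-catenin allele stood beside a floxed one. In D164A/-, ΔC/- and dm/- lines the floxed allele had been deleted with an adenovirus carrying Cre recombinase and GFP, followed by sorting for GFP, so that the mutant allele was the remaining one. D164A is a point mutation that disrupts the binding of Bcl9 and Bcl9L, whereas the sources used here do not spell out dm and ΔC.

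Each genotype was grown in 4 cultures, with or without Wnt3a (100 ng/ml for 3 days) and with or without TGFβ (2 ng/ml for 4 days), and each culture had 2 replicates. The labels call the replicates biological duplicates but do not say whether they were different lines or cultures, so p-values measure the spread between these samples, and a genotype and a cell line cannot be told apart. The libraries held 22.4 M to 33.7 M reads on genes, with a median of 26.8 M, and 3 reads, the smallest level counted as detected, corresponded to 0.0917 to 0.146 CPM, a limit that covers counting error only. Replicates correlated with r between 0.944 and 0.995 in 26 of 28 conditions, but r was 0.833 for dm/fl cells without Wnt3a and 0.896 for dm/- cells with Wnt3a, and results that rest on these libraries are given with and without the dm lines. Axin2, a feedback inhibitor of Wnt signaling, rose from 1.08 to 73.5 CPM with Wnt3a (log2 difference 4.26, limma adjusted p = 1.9e-17). Epithelial markers summed to 1185 to 8284 CPM. Of the fibroblast markers, Lum and Thy1 stayed under 1 CPM in every sample, but Pdgfrb reached 494, Pdgfra 302 and Col1a1 70.9 CPM, and of the leukocyte markers Ptprc and Cd3e stayed under 1 CPM, but Csf1r reached 530 and Cd68 79.4 CPM.

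Semaphorins were first known as guidance cues that repel growing axons, and they also control the adhesion, migration and blood supply of tumors. Class 3 semaphorins are secreted, are cut by furin-type proteases and mostly bind a complex of a neuropilin with a class A plexin, while Sema3e binds plexin D1 directly. Class 4 semaphorins stay in the membrane and signal mainly through class B plexins, whose cytoplasmic part switches off Ras-type GTPases. Wnt3a stabilizes β-catenin, which activates genes with TCF/LEF factors, and TGFβ acts through SMAD proteins and drives an epithelial-mesenchymal transition of mammary tumor cells.

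The 250 bases before the transcription start (RefSeq, GRCm38.p6) were searched on both strands for the core letters of a TCF site (CTTTGA, or TCAAAG) and of a SMAD site (CAGAC, or GTCTG). Windows were given for 8 of the 10 members, 15 windows in all, and Sema3b and Sema3f had no entry. The TCF letters occurred in 13.8% of all 32851 windows and in 1 of the 15 member windows, that of Sema3e. The SMAD letters occurred in 42.2% of all windows and in 7 of the 15 member windows, which belong to 4 members, Sema4a, Sema4c, Sema4d and Sema4f. The 3 windows printed here belong to the 3 members that changed with TGFβ, and capitals mark a match. The Sema4f window lies at chr6:82939770-82940019 on the minus strand, just before the gene, which covers chr6:82911884-82939769 (Entrez 20355). The Sema3e window lies at chr5:14025026-14025275 and the Sema3c window at chr5:17574566-17574815, both on the plus strand.
Sema4f: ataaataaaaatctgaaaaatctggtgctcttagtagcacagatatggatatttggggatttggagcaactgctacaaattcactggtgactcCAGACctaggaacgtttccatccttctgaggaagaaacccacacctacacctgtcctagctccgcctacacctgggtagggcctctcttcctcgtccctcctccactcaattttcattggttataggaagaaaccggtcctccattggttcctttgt
Sema3e: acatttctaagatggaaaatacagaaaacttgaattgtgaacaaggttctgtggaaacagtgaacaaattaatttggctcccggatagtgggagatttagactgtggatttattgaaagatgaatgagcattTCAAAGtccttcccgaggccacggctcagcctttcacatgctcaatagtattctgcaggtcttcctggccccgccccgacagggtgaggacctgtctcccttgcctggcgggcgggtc
Sema3c: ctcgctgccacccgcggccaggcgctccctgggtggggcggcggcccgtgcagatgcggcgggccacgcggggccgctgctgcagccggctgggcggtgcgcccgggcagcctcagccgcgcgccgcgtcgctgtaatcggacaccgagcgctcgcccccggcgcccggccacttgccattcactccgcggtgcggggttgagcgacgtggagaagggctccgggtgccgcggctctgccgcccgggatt
Sema4f held CAGAC 157 bases before the start, Sema3e held TCAAAG 118 bases before it, and Sema3c, whose window was 78.4% G and C, held neither. No match says only that these letters are absent from this window, and a match is not a binding site. Sema3a (Entrez 20346, chr5:13124822-13603485), Sema3e (20349, chr5:14025276-14256689) and Sema3c (20348, chr5:17574816-17730268) lie on the same stretch of chromosome 5, with gaps of 0.42 and 3.32 Mb, whereas Sema3b (20347, chr9:107597674-107609241) and Sema3f (20350, chr9:107681499-107710475) lie together on chromosome 9.

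Per length of exon, Sema3c was the most abundant member in untreated cells, with a median of 31.0 CPM per kb over 28 untreated samples. Sema3f followed with 18.1 and Sema4d with 11.4 CPM per kb, and Sema4b and Sema4c had 6.01 CPM per kb each. Sema3e had 3.20, Sema4a 1.58 and Sema4f 1.35 CPM per kb. Sema3a (0.240) and Sema3b (0.0365) were the least abundant. The secreted class thus held both the highest and the lowest pooled medians, but the order changed with the genotype. Sema3f exceeded Sema3c in ΔC/fl cells (medians of 37.8 and 26.0 CPM per kb), and Sema3f (25.3) and Sema4d (16.2) exceeded Sema3c (15.6) in dm/- cells. Sema4f had 14 in fl/fl cells, slightly more than Sema4d (13.4), and Sema3a had 3.33 in ΔC/fl cells, more than Sema3e (1.11), Sema4a (0.282) and Sema4f (2.16). Sema3c, Sema3e, Sema3f, Sema4b, Sema4c and Sema4d reached 1 CPM in all 56 samples, while Sema3b did so in 5, Sema3a in 27, Sema4a in 42 and Sema4f in 49. Sema3a was at or under 3 reads in 18 samples, Sema3b in 19, Sema4a in 3 and Sema4f in 2.

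**Figure D1:**
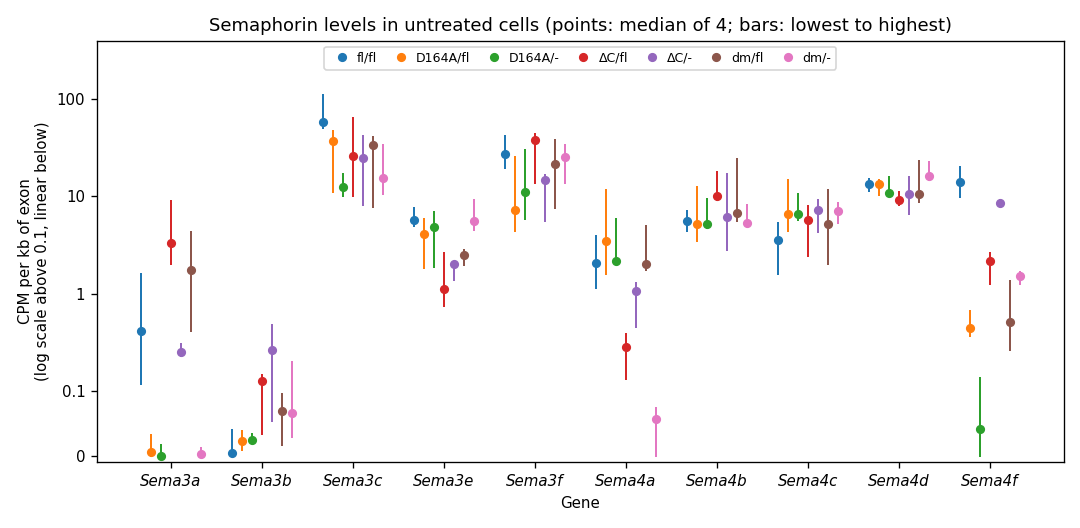
Levels of the 10 semaphorins in untreated cells, as CPM per kb of exon on an axis that is logarithmic above 0.1 and linear below, for 7 genotypes. Points are the median and bars the lowest to highest of 4 samples. The medians of Sema4b, Sema4c and Sema4d stay within a narrow range across genotypes, with wide bars for Sema4b in ΔC/- (2.82 to 17.0) and dm/fl cells (5.58 to 24.4) and for Sema4c in dm/fl cells (2.01 to 11.6), whereas Sema3a, Sema4a and Sema4f spread from near 0 to over 1 CPM per kb.

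Sema4f is a membrane-spanning semaphorin found at synapses and known to collapse growth cones. Its level in untreated cells differed widely among the genotypes. It was highest in fl/fl cells, with 58.9 ± 17.6 CPM (mean ± SD, n = 4), and lowest in D164A/- cells, with 0.222 ± 0.237 CPM. ΔC/- cells came second with 35.0 ± 2.26 CPM, and neither they nor fl/fl cells overlapped with the next genotype. The middle of the order was ΔC/fl (8.40 ± 2.77), dm/- (6.07 ± 0.916), dm/fl (2.71 ± 1.94) and D164A/fl cells (1.96 ± 0.570), and each of these overlapped with its neighbour. D164A/fl cells did not overlap with D164A/- cells.

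In fl/fl cells, the 2 replicates had 52.1 and 39.9 CPM of Sema4f without Wnt3a, 88.0 and 141 with Wnt3a, 81.6 and 61.9 without TGFβ and 278 and 293 with TGFβ. In D164A/- cells they had 0.109 and 0.549, 0.339 and 1.64, 0 and 0.229, and 0.353 and 0.366 CPM in the same order. Over all cultures the mean was 129 CPM in fl/fl and 0.448 CPM in D164A/- cells (n = 8 each), a ratio of 289 (466 without the second Wnt3a-treated D164A/- replicate, whose 45 reads compare with 0 to 13 in the other 7), and the lowest fl/fl sample (39.9) lay above the highest D164A/- sample (1.64). These are the values that chose the gene. The ranges of the other members in D164A/- cells overlapped with those in fl/fl cells. The separation of Sema4f follows from its choice, and the share of all genes without overlap here was not counted. Sema3c had means of 105 CPM in D164A/- and 239 CPM in fl/fl cells, Sema3f of 47.1 and 112, and Sema3a of 0.137 and 2.99. Sema4c (35.4 and 23.8), Sema4a (11.9 and 7.95) and Sema3b (0.401 and 0.0605) had higher means in D164A/- cells. The ratios of the means of Sema3e, Sema4b and Sema4d were 0.988, 1.08 and 0.972.

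A low level of Sema4f was also seen in cells that kept a floxed allele. In D164A/fl cells, Sema4f had 1.48 and 1.59 CPM without Wnt3a, 13.5 and 14 with Wnt3a, 2.05 and 2.73 without TGFβ and 2.15 and 2.64 with TGFβ. In each of the 4 cultures both D164A/- samples lay below both D164A/fl samples, with a mean over cultures of 0.448 against 5.02 CPM, again a description. Of all genes, 6.8% lay lower in all 4 cultures. In dm/fl cells the values were 5.53 and 2.06, 2.81 and 12.0, 1.09 and 2.17, and 13.2 and 13.8 CPM in the same order of cultures. All 16 samples of D164A/fl and dm/fl cells therefore lay below the lowest fl/fl sample. So did all ΔC/fl samples (highest 26.9 CPM) and all dm/- samples (highest 11.1 CPM), whereas ΔC/- samples ran from 32.3 to 82.2 CPM.

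**Figure D2:**
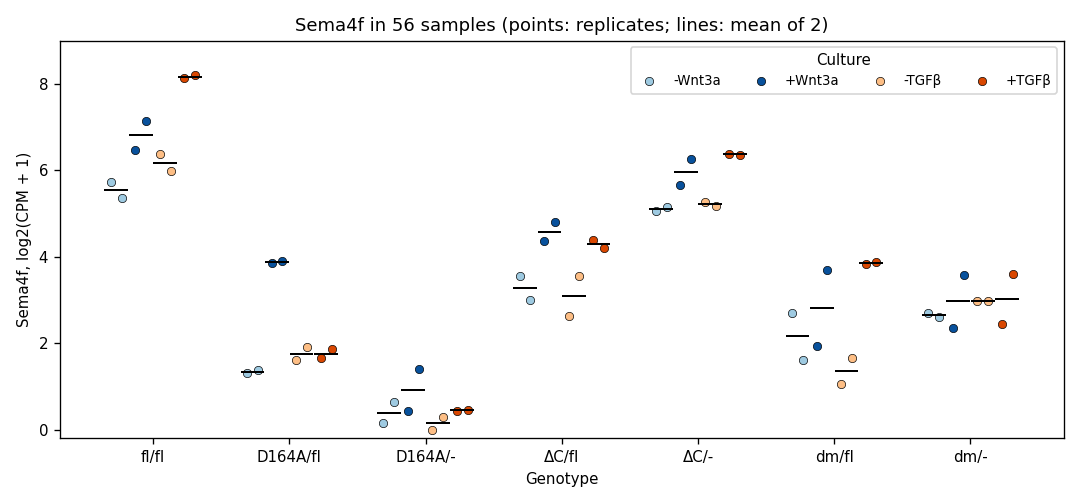
Sema4f as log2(CPM + 1) in all 56 samples, by genotype and culture. Points are replicates and lines the mean of 2. The fl/fl samples lie highest and the D164A/- samples lowest in every culture, ΔC/- samples lie above ΔC/fl samples, and D164A/fl cells stand out by their 2 Wnt3a-treated samples (13.5 and 14 CPM).

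The other members followed different orders of genotypes. Sema3a, a secreted ligand of neuropilin 1, was at 28.4 ± 20.0 CPM in untreated ΔC/fl cells and 13.2 ± 10.7 CPM in dm/fl cells, but at most at 0.212 CPM in any untreated D164A/fl, D164A/- or dm/- sample (n = 4 each). Sema3c, a secreted semaphorin known to promote tumor cell migration, had 382 ± 152 CPM in fl/fl cells, and its lowest fl/fl sample (274) lay above all samples of the next genotype, D164A/fl, although 1 ΔC/fl sample reached 351 CPM. Sema4a, known for its part in T cell activation, ran from 19.6 ± 18.0 CPM in D164A/fl cells to 0.181 ± 0.126 CPM in dm/- cells, with ΔC/fl (1.05 ± 0.483) and dm/- cells clear of their neighbours above. Sema4b, Sema4c and Sema4d varied least. Between the genotypes with the highest and the lowest mean they differed by 2.05-fold, 2.28-fold and 1.85-fold, and neighbours in the order overlapped throughout, as they did for Sema3f and Sema3b. Untreated means ran from 23.0 to 47.3 CPM for Sema4b, from 15.1 to 34.4 for Sema4c and from 56.3 to 104 for Sema4d. Sema3f, a secreted ligand that prefers neuropilin 2, ran from 40.5 ± 36.1 CPM in D164A/fl to 121 ± 48.6 CPM in ΔC/fl cells. Sema3b was near the limit of detection, from 0.0462 ± 0.0729 CPM in fl/fl to 1.01 ± 0.906 CPM in ΔC/- cells.

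The first comparison asked how the members respond to TGFβ, averaged over the 7 genotypes. Differences are on the scale of log2(CPM + 1), on which low genes appear to change less than they do. Of the 10 members, Sema3c and Sema3e fell and Sema4f rose. The test was limma across all 13754 genes with Benjamini-Hochberg adjustment, and a gene was called where the adjusted p did not exceed 0.05 and the log2 difference reached 1 in either direction, as in the methods of the study, which used a lower fold limit for some of its gene lists. It called 4.88% of all genes (2.2% lower, 2.68% higher) and 3 of 10 members. Of these, Sema4f lay close to the fold limit, and its test is not independent of its choice. The median of the members was -0.17 and that of all genes -0.02.

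Sema3c fell most. It had 274 and 324 CPM without and 15.7 and 22.8 CPM with TGFβ in fl/fl cells, 261 and 196 against 65.5 and 47.3 in D164A/fl cells, 351 and 161 against 109 and 78.2 in ΔC/fl cells, and 231 and 186 against 87.3 and 20.5 in ΔC/- cells. In dm/fl cells it went from 189 and 179 to 19.2 and 17.7 CPM and in dm/- cells from 185 and 107 to 70.0 and 17.1 CPM. D164A/- cells went the other way, from 71.0 and 67.7 to 181 and 167 CPM. Treated samples lay below untreated ones without overlap in 6 of 7 genotypes, which 3.14% of all genes did in at least 6. The mean log2 difference was -1.92 (SE 0.28, adjusted p = 2.33e-06).

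Sema3e, the ligand of plexin D1, was lower with TGFβ in 7 of 7 genotypes and without overlap in 6 (log2 difference -1.48, SE 0.18, adjusted p = 7.77e-08). The largest change was in dm/- cells, from 63.0 and 43.1 to 8.37 and 2.25 CPM. In fl/fl cells it went from 34.2 and 37.2 to 12.2 and 12.8 CPM, in D164A/fl cells from 40.6 and 32.3 to 11.8 and 9.71, in ΔC/fl cells from 18.0 and 7.59 to 2.29 and 3.53, and in ΔC/- cells from 14.7 and 13.0 to 5.32 and 1.98 CPM. The change was small in dm/fl cells (18.4 and 19.1 against 16.1 and 13.3 CPM), and in D164A/- cells the samples overlapped (46.9 and 35.8 against 46.7 and 30.3 CPM).

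Sema4f had a higher mean with TGFβ in 7 of 7 genotypes (log2 difference 1.02, SE 0.17, adjusted p = 1.46e-05), without overlap in 5, as were 11.7% of all genes in at least 5. The means hardly differed in D164A/fl cells (2.39 and 2.40 CPM). D164A/- cells, among the 5, lay near the limit of detection (0 and 0.229 against 0.353 and 0.366 CPM). The fl/fl and D164A/- libraries that chose the gene enter this mean, so the test is not independent of the choice. In ΔC/fl cells Sema4f went from 5.20 and 10.7 to 19.8 and 17.4 CPM, in ΔC/- cells from 37.8 and 35.2 to 82.2 and 81.1 CPM, and in dm/- cells it had 6.81 and 6.89 against 4.43 and 11.1 CPM. The value lay close to the fold limit. It was 0.97 with the trend of the values with GC content removed (adjusted p = 2.65e-05) and 0.93 without the dm lines (3.06e-05), so that the gene was no longer called although the adjusted p stayed low. It was also just under 1 without the first untreated replicate of ΔC/fl (0.96) or dm/fl cells (0.98), the second untreated replicate of fl/fl cells (0.997) or the second treated replicate of dm/- cells (0.94). Sema4c, a ligand of plexin B2, was higher in 7 of 7 genotypes and without overlap in 6, where 6.21% of all genes were, but its log2 difference of 0.83 (SE 0.19, adjusted p = 0.000774) did not reach the limit. Its mean was 27.9 CPM without and 52.3 CPM with TGFβ.

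**Figure D3:**
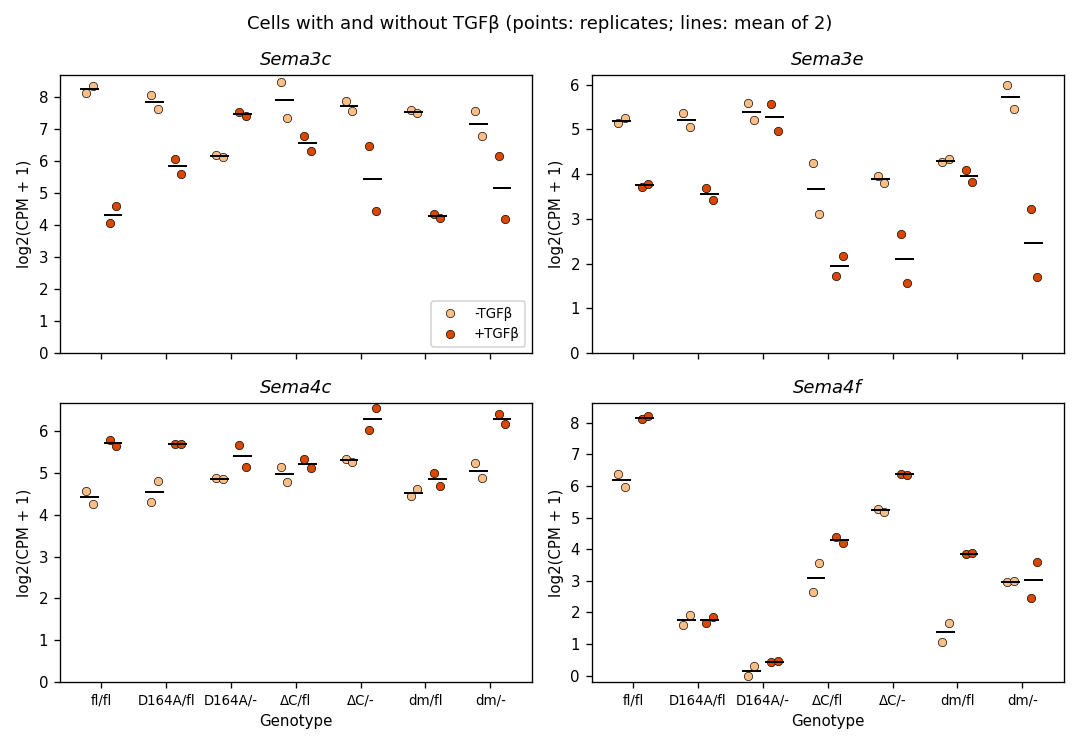
Sema3c, Sema3e, Sema4c and Sema4f as log2(CPM + 1) in cells without and with TGFβ for 7 genotypes. Points are replicates and lines the mean of 2. Sema3c is lower with TGFβ except in D164A/- cells, where it is higher (71.0 and 67.7 against 181 and 167 CPM). Sema3e is lower on average in each genotype, with overlapping samples in D164A/- cells. Sema4c and Sema4f are higher on average in each genotype, Sema4f barely so in D164A/fl cells (means of 2.39 and 2.40 CPM).

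The remaining members gave no call. Sema4a had a log2 difference of -0.54 (adjusted p = 0.0321), Sema3f of -0.35 (0.349), Sema4b of 0.30 (0.423), Sema4d of 0.10 (0.684) and Sema3b of -0.05 (0.715). Sema3a had -0.28 (adjusted p = 0.248), and its sign turned with a pseudocount of 0.1 (0.19) and in edgeR on the whole reads (1.39, adjusted p = 0.0583). An adjusted p over the limit does not show that a gene stayed at the same level.

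Whether the TGFβ response differs among the genotypes was tested with a moderated F-test on the differences between the responses. It passed for 18.3% of all genes and for 4 of 10 members. With a term for the replicate number in the fit, 4775 of 13754 genes passed, among them Sema3b, Sema3f, Sema4a and Sema4d besides these 4. For Sema3c (adjusted p = 0.00967), the responses ran over 5.21 log2 units, from -3.90 in fl/fl (adjusted p = 0.000419 within that genotype) and -3.25 in dm/fl cells (0.00215) to 1.31 in D164A/- cells (not called). For Sema4f (0.0122), they ran from 2.50 in dm/fl (adjusted p = 0.000102) and 1.99 in fl/fl cells (0.00265) to 0.01 in D164A/fl cells. Its choice rested on its levels in fl/fl and D164A/- cells, whose libraries enter this test, and the scale compresses differences at its low level in D164A/- cells, so this value is not independent of the choice. For Sema3e (0.0111), they ran from -3.27 in dm/- (1.03e-05) to -0.12 in D164A/- cells, and for Sema3a (0.0263) from -1.99 in dm/fl (0.00199) to 0.56 in D164A/- cells. Without the dm lines, a choice made after seeing the data, the F-test still passed for Sema3c (0.00326) and Sema4f (0.0178) but not for Sema3e (0.275) or Sema3a (0.367). Sema4f also failed it in edgeR (0.129), with a pseudocount of 0.1 (0.107) and without the first untreated dm/fl replicate (0.0528). Sema3a failed it without that replicate (0.187) or the second treated dm/fl replicate (0.189), and Sema3e without the first untreated (0.0575) or second treated dm/- replicate (0.0721). With the GC trend of the values removed, the test passed for 8 of 10 members, all but Sema3b and Sema4b.

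Within single genotypes or cultures 2 samples stood against 2. With a library left out, 1 sample remained in an arm and was assumed to vary like the other groups, so that a call lost there reflects the smaller design as well as the library. By genotype, dm/fl cells had the most members called, 5 of 10 beside 10.3% of all genes. Sema3c, Sema3f (-2.32, adjusted p = 0.0157), Sema3a and Sema4a (-1.48, 0.0483) fell and Sema4f rose. Sema3f went from 91.6 and 64.0 to 12.6 and 16.7 CPM there, and Sema3a from 27.6 and 14.2 to 6.36 and 2.76 CPM. Of these, Sema3f, Sema3a and Sema4a lost the call when single libraries of dm/fl cells were left out, among them the second treated replicate (-2.52, -1.50 and -1.49 with adjusted p = 0.059, 0.0983 and 0.187). In fl/fl cells, Sema3c and Sema4f were called (6.25% of all genes). The call of Sema4f there rests on libraries that also entered its choice, so it is not independent of that choice. Sema3e alone was called in D164A/fl (3.38%), ΔC/fl (7.74%), ΔC/- (6.55%) and dm/- cells (6.12%). No member was called in D164A/- cells, where 4.06% of all genes were. Sema4f in fl/fl cells lost the call without the second untreated replicate (1.79, adjusted p = 0.0544), and Sema3e lost it in D164A/fl, ΔC/fl and ΔC/- cells when any of 4, 2 and 3 libraries was left out, though not in dm/- cells.

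**Figure D4:**
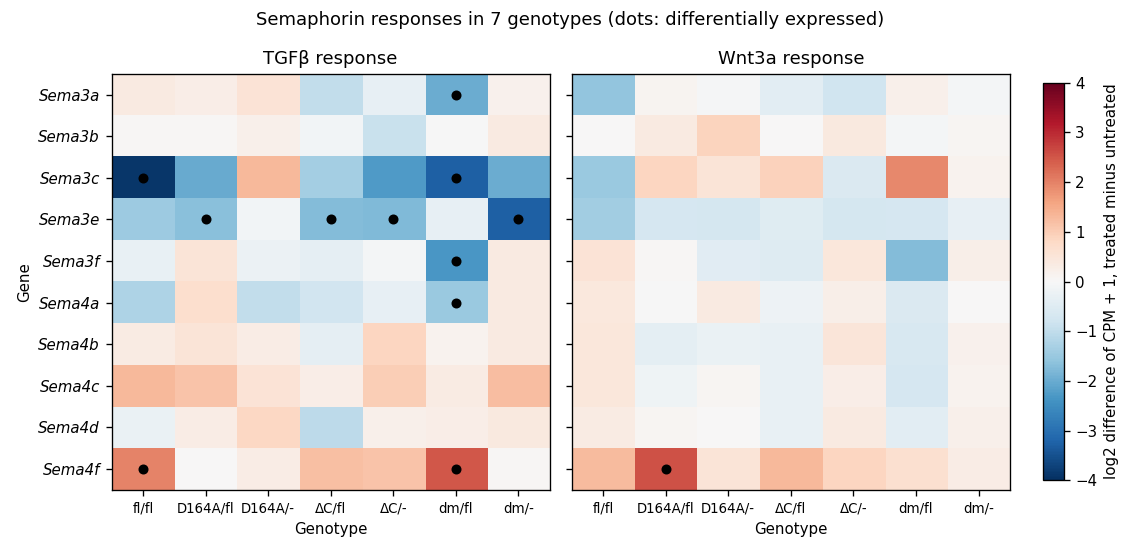
Log2 difference of CPM + 1 between treated and untreated cells for 10 semaphorins in 7 genotypes, for TGFβ (left) and Wnt3a (right). Blue is lower and red higher with the cytokine, and dots mark differentially expressed genes. Sema3c (-3.90 in fl/fl cells) and Sema3e (-3.27 in dm/- cells) give the deepest blue under TGFβ, and Sema4f in D164A/fl cells (2.54) is the single call under Wnt3a.

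With Wnt3a, Sema4f was the member that rose, and no member fell past both limits. The mean test called 0.494% of all genes (0.378% higher and 0.116% lower) and 1 of 10 members. The median of the members was 0.00 (all genes -0.00). Sema4f was higher in 7 of 7 genotypes, and without overlap in 4, as were 1.99% of all genes in at least 4 (log2 difference 1.06, SE 0.17, adjusted p = 5.95e-05). Besides the values above, it had 10.7 and 6.98 CPM without and 19.5 and 26.9 CPM with Wnt3a in ΔC/fl cells, 32.3 and 34.7 against 49.4 and 75.8 in ΔC/- cells, and 5.49 and 5.10 against 4.08 and 11.0 in dm/- cells. The clearest response was that of D164A/fl cells (log2 difference 2.54, adjusted p = 0.000156), a genotype in which 4.15% of all genes were called. It was not called in fl/fl (1.27), ΔC/fl (1.31), ΔC/- (0.85), dm/fl (0.65), D164A/- (0.52) or dm/- cells (0.31), where the test called 0.378%, 0.225%, 0.0509%, 0.574%, 0.654% and 0.0% of all genes. The F-test did not show that the responses differ (adjusted p = 0.498, where 2.39% of all genes passed), although without the second dm/fl replicate without Wnt3a the adjusted p was 0.0496. Sema4f stands in the study's own list of Wnt3a-regulated genes, which was chosen on samples of this series, so the mean over all genotypes is not independent evidence of its direction. That mean also includes the fl/fl and D164A/- libraries that entered the choice of the gene. The response was 1.30 without the dm lines (adjusted p = 2.19e-06) and fell just below the limit of 1 when one of 4 libraries was left out, the second replicate of dm/fl cells without (0.99) or with Wnt3a (0.94), of dm/- cells with Wnt3a (0.98) or of D164A/- cells with Wnt3a (0.99).

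Sema3e was lower with Wnt3a in 7 of 7 genotypes, without overlap in 3 (5.41% of all genes in at least 3), at a log2 difference of -0.71 (SE 0.18, adjusted p = 0.0173) under the fold limit. The differences of many genes followed the GC content of their transcripts in this experiment, with a Spearman rho of 0.81 in fl/fl, 0.84 in ΔC/- and -0.82 in dm/fl cells, against 0.44 in dm/-, 0.18 in D164A/-, -0.43 in ΔC/fl and 0.0035 in D164A/fl cells. This is a correlation across 9381 genes, which are not independent replicates. Transcripts of Sema3e have 42.0% and those of Sema4f 57.3% G and C. With this trend removed, Sema4f had 1.05 and Sema3e -0.53 (adjusted p = 0.057). The other 8 members lay between -0.37 and 0.32 with adjusted p-values of 0.164 or more.

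The next comparisons set cells with a deleted against cells with a floxed second allele, as a mean over the 4 cultures. For D164A, 9.23% of all genes (4.01% higher and 5.23% lower) and none of the 9 members tested were called. In the -Wnt3a, +Wnt3a, -TGFβ and +TGFβ cultures, Sema4f, which was not tested here, had log2 differences of -0.95, -2.97, -1.61 and -1.32. Sema4a was nearest to a call among the others (log2 difference -0.76, adjusted p = 0.0208). In TGFβ-treated cells alone, where 10.2% of all genes were called, Sema3e was higher in D164A/- than in D164A/fl cells (46.7 and 30.3 against 11.8 and 9.71 CPM, log2 difference 1.72, adjusted p = 0.0119) and Sema4a was lower (5.25 and 2.20 against 9.39 and 15.1 CPM, -1.53, adjusted p = 0.0379). Neither call held when single libraries were left out, with 1.42 for Sema3e (adjusted p = 0.184) without the first D164A/- replicate and -1.05 for Sema4a (0.381) without the second, and Sema4a also lost it in edgeR (0.0919).

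For ΔC, Sema4f and Sema4a were higher and Sema3a and Sema3f lower in ΔC/- than in ΔC/fl cells, 4 of 10 members beside 13.3% of all genes (5.28% higher and 8.06% lower). The median of the members was 0.38 (all genes -0.00). Sema4f had a log2 difference of 1.86 (SE 0.22, adjusted p = 3.19e-08), with means of 53.6 and 14.7 CPM (n = 8 each). Deleted samples lay above floxed samples in all 4 cultures, as they did for 8.99% of all genes. Within the -Wnt3a, +Wnt3a, -TGFβ and +TGFβ cultures, the differences were 1.83, 1.38, 2.14 and 2.08 (adjusted p = 0.00497, 0.0363, 0.000659 and 0.000759), and 8.16%, 9.6%, 12.0% and 14.2% of all genes were called. The call with Wnt3a was lost in edgeR (0.106) and without any one of its 4 libraries (1.08 to 1.68), and that without Wnt3a was lost without the second ΔC/fl replicate (1.56, 0.109). Sema4a was also higher without overlap in all cultures (1.40, SE 0.25, adjusted p = 3.26e-05), with 1.78, 3.74 and 4.99 CPM as the lowest, median and highest of 8 ΔC/- samples and 0.146, 0.665 and 1.49 CPM in ΔC/fl cells. Sema3a went the other way without overlap in any culture, where 8.52% of all genes did (-3.17, SE 0.23, adjusted p = 2.71e-13), with 0.452, 1.55 and 1.95 CPM in ΔC/- and 10.2, 16.3 and 57.4 CPM in ΔC/fl cells. Sema3f was at the limit (-1.01, adjusted p = 0.0163), with means of 50.3 and 105 CPM. It was between -1.20 and -0.82 with any one library left out and lost the call for 8 of the 16, namely the first ΔC/- replicates without and with Wnt3a and with TGFβ, the second ΔC/- replicate without TGFβ, the second ΔC/fl replicates without and with Wnt3a and the first ΔC/fl replicates without and with TGFβ. Sema3c gave no call (-0.89, adjusted p = 0.0572) but passed both limits in 6 of the 16 fits with a library left out (-1.15 to -1.02), those without the first ΔC/- replicate without or with Wnt3a or with TGFβ, or the second ΔC/fl replicate without or with Wnt3a or without TGFβ. In TGFβ-treated cells Sema4d, also known as CD100, was higher as well (60.3 and 86.4 against 25.0 and 25.1 CPM, 1.49, adjusted p = 0.00435), but not without the second ΔC/- replicate (1.23, 0.0927).

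For dm, Sema3a and Sema4a were lower and Sema3f higher in dm/- than in dm/fl cells, 3 of 10 members beside 17.5% of all genes (7.3% higher and 10.2% lower). The median of the members was 0.29 (all genes -0.02). Sema3a had 0 reads in 5 of 8 dm/- samples and at most 0.264 CPM, against 2.68, 6.48 and 27.6 CPM as the lowest, median and highest of dm/fl cells (-2.97, SE 0.23, adjusted p = 9.13e-13). Sema4a had 0, 0.221 and 0.644 CPM in dm/- and 2.09, 7.03 and 19.1 CPM in dm/fl cells (-2.56, SE 0.25, adjusted p = 2.98e-10). Both lay below dm/fl cells without overlap in all 4 cultures, as did 9.22% of all genes. Sema3f had means of 104 and 48.7 CPM (1.44, SE 0.34, adjusted p = 0.000635), with 154 and 89.0 against 12.6 and 16.7 CPM under TGFβ and overlapping samples without it (123 and 68.4 against 91.6 and 64.0 CPM). Its samples without Wnt3a overlapped as well, with 50.5 and 116 CPM in dm/- against 139 and 27.7 CPM in dm/fl cells. In the TGFβ experiment alone, a choice made after seeing the data that leaves out the dm libraries that agree least, the values were -3.30 for Sema3a, -1.86 for Sema4a and 1.59 for Sema3f, and all were called.

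Sema4f gave no call between dm/- and dm/fl cells (0.35, adjusted p = 0.202), and the cultures pointed in opposite directions. It was higher in untreated dm/- cells of the TGFβ experiment (6.81 and 6.89 against 1.09 and 2.17 CPM, 1.61, adjusted p = 0.00776) and lower with TGFβ (4.43 and 11.1 against 13.2 and 13.8 CPM, -0.84, not called). Sema3e had a lower mean in dm/- than in dm/fl cells with TGFβ only, and a higher mean in the other 3 cultures. It had 33.0 and 30.8 against 13.7 and 16.3 CPM without Wnt3a (1.05, adjusted p = 0.118) and 40.1 and 15.4 against 9.92 and 8.21 CPM with Wnt3a (1.37, adjusted p = 0.036). In the TGFβ experiment it had 63.0 and 43.1 against 18.4 and 19.1 CPM without TGFβ (1.43, adjusted p = 0.0286) and 8.37 and 2.25 against 16.1 and 13.3 CPM with TGFβ (-1.50, adjusted p = 0.0202). In the cultures of the TGFβ experiment 16.1% and 16.8% of all genes were called, and each of these 3 calls of Sema4f and Sema3e was lost when single libraries were left out, with 1.31 for Sema4f without the first untreated dm/fl replicate (0.131), and 1.16 and -0.74 for Sema3e without the first untreated (0.227) and the second treated dm/- replicate (0.402). With Wnt3a, where 16.6% of all genes were called, Sema3c was lower (-2.48, adjusted p = 0.0149) and Sema3f higher (2.26, adjusted p = 0.0131) in dm/- cells, and both calls and that of Sema3e were lost without one of the libraries, among them the second dm/- replicate for Sema3c (-1.25) and Sema3f (1.19) and the first for Sema3e (0.71). With TGFβ, Sema3f (2.93, adjusted p = 0.0014) and Sema4c (1.44, adjusted p = 0.0311) were higher, and Sema4c lost the call without any one of the 4 libraries (1.29 to 1.60). Sema4c (0.87, adjusted p = 0.00395) and Sema4d (0.66, 0.00471) were higher in dm/- cells below the fold limit, and in ΔC/- cells as well (0.70, 0.0219 and 0.62, 0.00907). Without the first dm/fl replicate without Wnt3a (1.17) or the first dm/- replicate with Wnt3a (1.03), Sema4c passed the limit in dm/- cells.

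**Figure D5:**
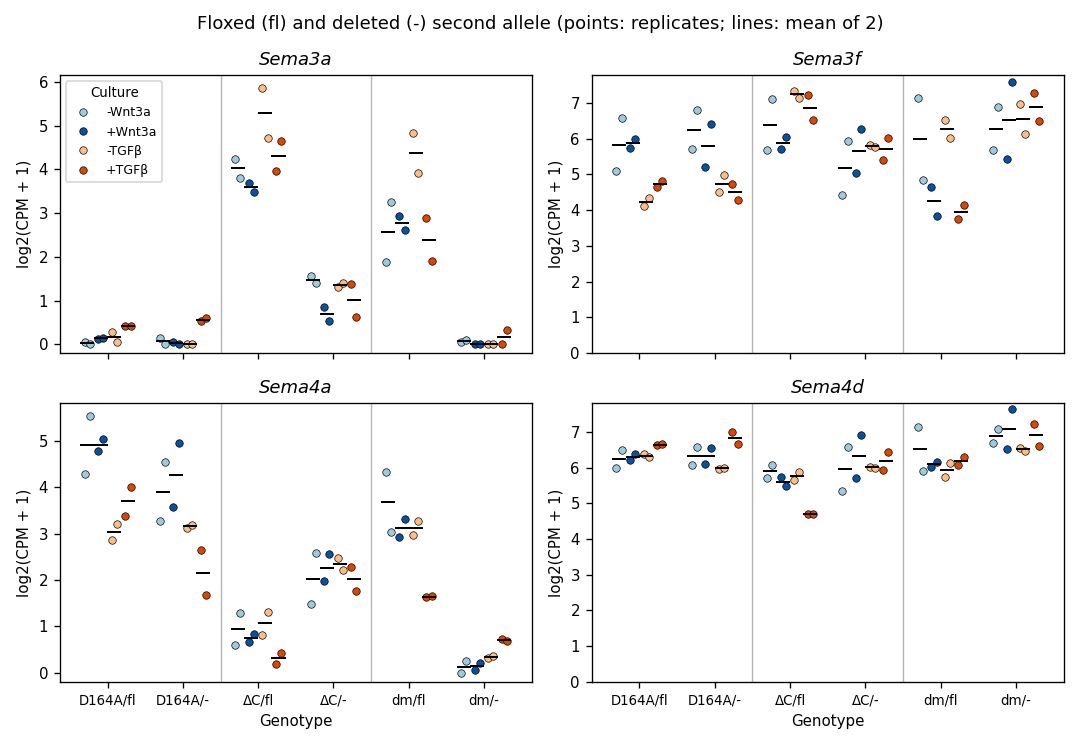
Sema3a, Sema3f, Sema4a and Sema4d as log2(CPM + 1) in cells with a floxed (fl) or deleted (-) second allele, for the D164A, ΔC and dm mutations. Points are replicates, colored by culture, and lines the mean of 2. Sema3a is lower in ΔC/- and dm/- cells in every culture, whereas Sema4a is higher in ΔC/- and lower in dm/- cells than in their floxed counterparts.

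Marker genes of other cells also differed between these lines. The 6 fibroblast markers, led by Pdgfra and Pdgfrb with Lum and Thy1 under 1 CPM, summed to 72.9 to 743 CPM in ΔC/fl and 43.6 to 533 CPM in dm/fl cells against 5.65 to 26.0 CPM in ΔC/- and 6.39 to 126 CPM in dm/- cells. The 5 immune markers, nearly all from Csf1r and Cd68 with Ptprc and Cd3e under 1 CPM, summed to 292 to 533 CPM in dm/fl and 30.6 to 88.0 CPM in dm/- cells. They moved the other way in ΔC, from 3.23 to 13.2 CPM in ΔC/fl to 17.1 to 80.7 CPM in ΔC/- cells. Between fl/fl and D164A/- cells, the immune sum was lower in D164A/- cells (52.9 to 217 against 1.27 to 6.86 CPM), whereas the fibroblast sum (5.58 to 32.6 against 50.7 to 146 CPM) and the neural sum, mostly from Map2 (15.0 to 59.7 against 109 to 169 CPM), were higher. Per the methods of the study, fibroblasts had been removed from the primary cultures by differential trypsinization, and the Cre-treated cells were sorted for GFP. The 4 endothelial, 3 adipocyte and 4 neural markers reached at most 35.2, 23.6 and 182 CPM in sum, with Tek, Kdr, Adipoq, Plin1 and Gfap under 1 CPM in every sample. Their part in the differences of Sema3a, Sema4a, Sema3f and Sema4f was not tested, and in such bulk samples fewer cells of a type and less RNA per cell cannot be told apart.

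The receptors were present in these cells. Per length of exon, untreated cells had a median of 105 CPM per kb of Plxnb2, 44.1 of Nrp2, 34.9 of Plxna1, 19.0 of Nrp1 and 13.7 of Plxnb1. Plxna3 (4.68), Plxna2 (4.34) and Plxnd1 (3.38) were lower, Plxnb3 was at 0.235, and the medians of Plxna4 and Plxnc1 were 0. In the following, values in parentheses are the log2 difference and the limma adjusted p, and the shares of all genes called are those given above. Of 8 plexins tested, 2 rose with TGFβ and none fell. Plxnd1, the receptor of Sema3e, went from 33.3 to 123 CPM (1.89, adjusted p = 1.6e-07) and was higher in 7 of 7 genotypes, and Plxna4 rose as well (1.31, adjusted p = 5.36e-13). Plxnd1 was also higher in dm/- than in dm/fl cells (173 against 23.3 CPM, 3.18, adjusted p = 3.91e-10), as was Plxnb1, the receptor of Sema4d (1.19, adjusted p = 0.000146). Plxna4 was lower in ΔC/- (-2.39, adjusted p = 4.04e-17) and dm/- cells (-2.37, adjusted p = 4e-17), and Plxna2 was lower in D164A/- than in D164A/fl cells (1.07 against 7.62 CPM, -1.94, adjusted p = 3.45e-13). The other plexins gave no call in these comparisons.

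Of 8 neuropilins and co-receptors tested, none was called with TGFβ. Nrp1, the receptor of Sema3a, was higher in D164A/- cells (87.4 against 33.3 CPM, 1.33, adjusted p = 9.02e-05) and lower in dm/- cells (-2.02, adjusted p = 4.19e-08). Timd2, a receptor of Sema4a, was higher in D164A/- cells (1.86, adjusted p = 6.09e-16), and the integrin Itga1 was lower in ΔC/- cells (-1.84, adjusted p = 1.42e-10). Nrp2 gave no call, with -0.85 in D164A/- cells (adjusted p = 2.52e-06) and 0.35 with TGFβ (adjusted p = 0.00551). Of 7 other semaphorins tested, Sema7a, which is anchored to the membrane by a lipid, rose with TGFβ (1.59, adjusted p = 6.08e-08) and was lower in ΔC/- cells (-2.85, adjusted p = 4.11e-11). The transmembrane Sema6a was higher in ΔC/- (1.23, adjusted p = 0.000325) and dm/- cells (1.39, adjusted p = 5.4e-05), and Sema5a (-3.03, adjusted p = 2.17e-15) and Sema6b (-1.45, adjusted p = 8.72e-05) were lower in dm/- cells.

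Among 18 cytoplasmic effectors tested, 2 rose with TGFβ, Mical2, an enzyme that oxidizes actin (1.36, adjusted p = 5.32e-09), and the tyrosine kinase Fes (1.01, adjusted p = 2.13e-08). Dpysl3, a mediator of the growth cone response, was lower in ΔC/- (0.370 against 217 CPM, -6.70, adjusted p = 5.37e-18) and dm/- cells (2.62 against 319 CPM, -6.69, adjusted p = 4.09e-18). Rnd1, a small GTPase that binds plexins, was lower in D164A/- (-1.88, adjusted p = 6.7e-08) and higher in ΔC/- cells (1.15, adjusted p = 0.000125), and the kinase Fyn was lower in D164A/- cells (-1.66, adjusted p = 8.18e-06). Of 7 proteases, Furin, which cuts class 3 semaphorins, rose with TGFβ (1.07, adjusted p = 0.00412), and the related convertase Pcsk6 fell with TGFβ (-1.81, adjusted p = 3.46e-09) and was lower in dm/- cells (-3.88, adjusted p = 1.21e-14). Pcsk5 was higher in D164A/- cells (1.33, adjusted p = 2.07e-12), and the membrane-bound metalloproteinase Mmp14 was lower in ΔC/- cells (0.107 against 91.3 CPM, -6.17, adjusted p = 9.58e-21). Fes, Furin, Itga1 and Sema6b were named after their values were seen. The tests covered 7 of 10 other semaphorins, 8 of 9 plexins, 8 of 11 neuropilins and co-receptors, 18 of 21 effectors and 7 of 7 proteases, and in this order their median differences with TGFβ were 0.27, 0.11, 0.08, 0.17 and 0.18 (all genes -0.02). In dm/- cells the medians were -0.20, 0.52, -0.18, -0.10 and -0.44 (all genes -0.02). With Wnt3a, no gene of these 5 lists was called, beside 0.494% of all genes. Ctnnb1, which encodes β-catenin, differed by 0.02 in D164A/-, 0.57 in ΔC/- and -0.37 in dm/- cells as compared to their floxed counterparts.

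Among the genes whose levels ran most like those of Sema4f over the 28 condition means were Ajuba (Spearman rho 0.87), Dock5 (0.86), Pnp (0.86) and Tmcc3 (0.85). Over the 56 samples the same genes had 0.85, 0.83, 0.82 and 0.82. The points share cell lines and libraries, and the values are a description.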

How the data were processed

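RNA was prepared from 56 cultures and sequenced as stranded, single-end poly(A) libraries. The authors aligned reads to the mouse genome mm10 with STAR (version not given in the sources used here), counted uniquely mapped reads per gene with QuasR and deposited a signal value per gene, the reads divided by an effective library size from edgeR, here called CPM. These values were whole multiples of 1 read (0.0306 to 0.0486 CPM) within 0.001 reads for 100% of values, so the reads were recovered and tested with edgeR as an alternative. The columns carried their samples' labels.

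Of 20314 genes, 13754 reached 1 CPM in 2 or more samples and were analysed on log2(CPM + 1) with limma 3.58.1 (R 4.3.3, edgeR 4.0.16), with 1 mean per condition over all 56 samples, a variance trend and Benjamini-Hochberg adjustment over all genes. Scripts were tested on simulated data. Groups came from the labels. The members, the pathway lists and the alternatives were chosen with earlier results of these data known. Beside the members, the genes named were the plexins, Nrp1, Nrp2, controls, the 5 genes most like Sema4f and, per comparison and direction, at most 3 called pathway genes with the largest differences. Some of these genes are not reported here. Motifs were searched in RefSeq promoters, and exon lengths and GC content came from GENCODE vM21. Alternatives were a pseudocount of 0.1, no filter, median-of-ratios scaling, edgeR, only the samples compared, a replicate block, a GC trend removed by lowess over genes with at least 10 CPM, and leaving out each replicate. Figures were drawn with matplotlib 3.10.9.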

Additional observations from a re-analysis of the deposited data

Results flagged for a closer look

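The TGFβ responses of 4 of 10 semaphorins differed among the 7 genotypes by the moderated F-test, which 18.3% of all genes passed. Adjusted p-values in limma were 0.00967 for Sema3c, 0.0111 for Sema3e, 0.0122 for Sema4f and 0.0263 for Sema3a. The value of Sema4f is not independent of its choice, because fl/fl and D164A/- libraries enter the test. Sema3c held in each alternative run. The lowest responses of Sema3e (-3.27) and Sema3a (-1.99) were those of dm/- and dm/fl cells. Over the other genotypes alone, without the dm lines, the F-test did not pass for Sema3e (0.275) or Sema3a (0.367). Nor did Sema4f pass in edgeR (0.129) or with a pseudocount of 0.1 (0.107). Each of these 3 was also lost without a single library, Sema3e without the first untreated (0.0575) or second treated dm/- replicate (0.0721), Sema3a without the first untreated (0.187) or second treated dm/fl replicate (0.189) and Sema4f without the first untreated dm/fl replicate (0.0528).

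Sema4a was higher in ΔC/- than in ΔC/fl cells (log2 difference 1.40) and lower in dm/- than in dm/fl cells (-2.56), in every culture of either mutation. The difference between these differences was not tested.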

How the results depend on the processing

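Of 922 values of the members under alternatives other than leaving out a replicate, 855 kept their side of the limits. Any change of sign among these was within the SE, and F-test values have no sign. Another 40 lost and 22 gained a call, and 5 changed sign by more than their SE. The last were Sema3a with TGFβ at a pseudocount of 0.1 (0.19) and in edgeR (1.39), Sema3b with TGFβ in edgeR (0.60), and, in dm/- against dm/fl cells without the Wnt3a experiment, Sema3c (0.25) and Sema3e (-0.038). The cause was not tested. Of 1744 values with 1 replicate left out, 1655 stayed, 79 lost and 10 gained a call, and none changed sign by more than its SE. Over all genes, a pseudocount of 0.1 called 1272 genes for TGFβ (671 in the main analysis), 193 for Wnt3a (68) and 1967 for D164A (1270), and 201 passed the Wnt3a F-test (329). Without a filter, 545 passed it. With edgeR, the counts were 1289 for TGFβ, 123 for Wnt3a, 2049 for D164A and 2864 for ΔC (1835), and 1488 and 30 passed the F-tests for TGFβ (2515) and Wnt3a. With only the samples compared, 5713 and 178 passed these F-tests. Without the dm lines, chosen after seeing the data, Wnt3a called 191 genes (83 higher and 108 lower, against 52 and 16). Leaving out 1 replicate gave 640 to 726 calls for TGFβ, 56 to 86 for Wnt3a, 1135 to 1425 for D164A, 1717 to 1985 for ΔC and 2280 to 2728 for dm, and 2139 to 2460 and 241 to 2963 genes in the F-tests, the 2963 without the second dm/fl replicate without Wnt3a. The main fit did not pair samples by replicate number, because the methods of the study name no pairing. Deviations of samples with the same number correlated at -0.2 to 0.93 between treatments (over 0.1 in 12 of 14 pairs) and at -0.55 to 0.78 between genotypes (7 of 12). With a replicate block, 4775 and 849 genes passed the F-tests, among them Sema3b, Sema3f, Sema4a and Sema4d for TGFβ, and 7531 and 1822 with the GC trend removed as well, and no count of the 5 mean comparisons moved by over 1.5 times. Median-of-ratios scaling moved no share of higher against lower calls by over 10 percentage points. At 3 reads per 0.0917 to 0.146 CPM, differences of Sema3b, of Sema4f in D164A/- cells and of Sema3a outside fl/fl, ΔC/fl, ΔC/- and dm/fl cells lay near the limit of detection. The same held for Sema4a in dm/- cells (0 to 0.644 CPM) and in TGFβ-treated ΔC/fl cells (0.146 and 0.340 CPM).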
